A study of Mus musculus with 6 samples.

Results

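The genes described here are 54 members of the bone morphogenetic protein (BMP) and transforming growth factor beta (TGF-beta) pathway: 16 ligands, 13 receptors and co-receptors, 8 SMAD proteins, 9 secreted antagonists and binding proteins, 4 latent TGF-beta binding proteins, and 4 genes grouped as a protease or target genes. They were taken by gene symbol from the platform's probe annotation, and each of the 54 had 1 probeset of its own. All 54 were tested, each being above the detection level on 3 or more of the 6 arrays, as were 15145 genes in all. The samples were mouse embryonic fibroblasts, called dp53R in the series title and Ras in the sample titles, names the sources used here do not explain. One group of 3 carried a construct labelled shSCR, the control short hairpin RNA, and the other group of 3 carried shARF, a hairpin against ARF, a tumour suppressor encoded at the Cdkn2a locus. Each group rests on a single hairpin construct, and the labels call the replicates biological without saying whether they were separate cultures or animals, so the p-values here reflect only how these samples vary, which may be technical variation. No age, strain or further treatment is given for either group.

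Ligands of this family are secreted dimers that bring together type I and type II receptor kinases. The receptors phosphorylate receptor SMADs: SMAD2 and SMAD3 for TGF-beta and activin, and SMAD1, SMAD5 and SMAD9 for BMPs. These pair with SMAD4 and move to the nucleus, while SMAD6, SMAD7 and BAMBI act as feedback inhibitors. Secreted proteins such as noggin, gremlin, chordin and follistatin hold ligands away from their receptors, and latent TGF-beta binding proteins tie inactive TGF-beta to the matrix. In fibroblasts TGF-beta is best known for driving matrix production and a contractile state, and BMPs for inducing the ID transcription inhibitors.

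Values are RMA signals on a linear scale, and differences are shARF minus shSCR on the log2 scale with the standard error (SE) from limma. Cdkn2a, the hairpin's target, measured 535, 539 and 516 on the shSCR arrays and 315, 254 and 286 on the shARF arrays (limma, adjusted p = 0.00459), although its probeset may also read p16Ink4a from the same locus. Array medians lay between 41.97 and 42.86. All 11 fibroblast markers examined exceeded the detection level, and 5 of 7 macrophage markers, Csf1r and Ptprc among them, exceeded it on no array. The summed signal of 6 epithelial markers ranged from 231 to 263 on shSCR arrays and from 340.3 to 475 on shARF arrays. Most of this lay in Krt18, with a mean of 129 in shSCR and 250 in shARF (limma, adjusted p = 0.037), and Krt8, with 57.1 and 96.5 (0.0583). Krt5 was faint at 14.8 and 17.9, Epcam and Krt14 overlapped between groups, and Cdh1 was not above the detection level on any array. The summed signal of 5 neural markers ranged from 367 to 389 and from 437 to 469, but its members moved unequally. Nefl rose from a mean of 97.0 ± 8.89 (SD, n = 3) to 234 ± 40.2 (limma, adjusted p = 0.00639), whereas Tubb3 went from 212 ± 22.8 to 150.1 ± 31.6 without passing (limma, adjusted p = 0.12). The part of these genes in the results was not tested. In bulk RNA, fewer cells of a type and less RNA per cell cannot be told apart.

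Of the 54 members, 5 passed the test in limma at an adjusted p under 0.05. Bmp2, Bmp5 and Tgfbi rose in shARF cells, and Fst and Ltbp2 fell. That is 9.26% of the members, beside 4.01% of all 15145 tested genes (1.62% higher and 2.38% lower). Bmp5 had entered the test only through its shARF values, and with no filter on dim probesets it was not called, leaving 4 members (7.41%) beside 1.93% of all genes. The groups did not overlap for 19 members (35.2%; 28.6% of all genes), 6 of them higher in shARF (12.0% of all genes) and 13 lower (16.6% of all genes). Before adjustment, 18 members had a p under 0.05 (33.3%; 22.2% of all genes), 4 of them higher (8.76% of all genes) and 14 lower (13.4% of all genes). The median difference of the members was -0.04, beside -0.01 over all genes, and 33 of 54 differences were below 0 (61.1%; 53.2% of all genes). For 46 members the 95% interval of the difference lay within a 1.5-fold change either way, which was so for 91.7% of all genes. The other 8 were Bmp2, Bmp5, Inhbb, Acvr1b, Fst, Bmper, Ltbp2 and Tgfbi.

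**Figure D1:**
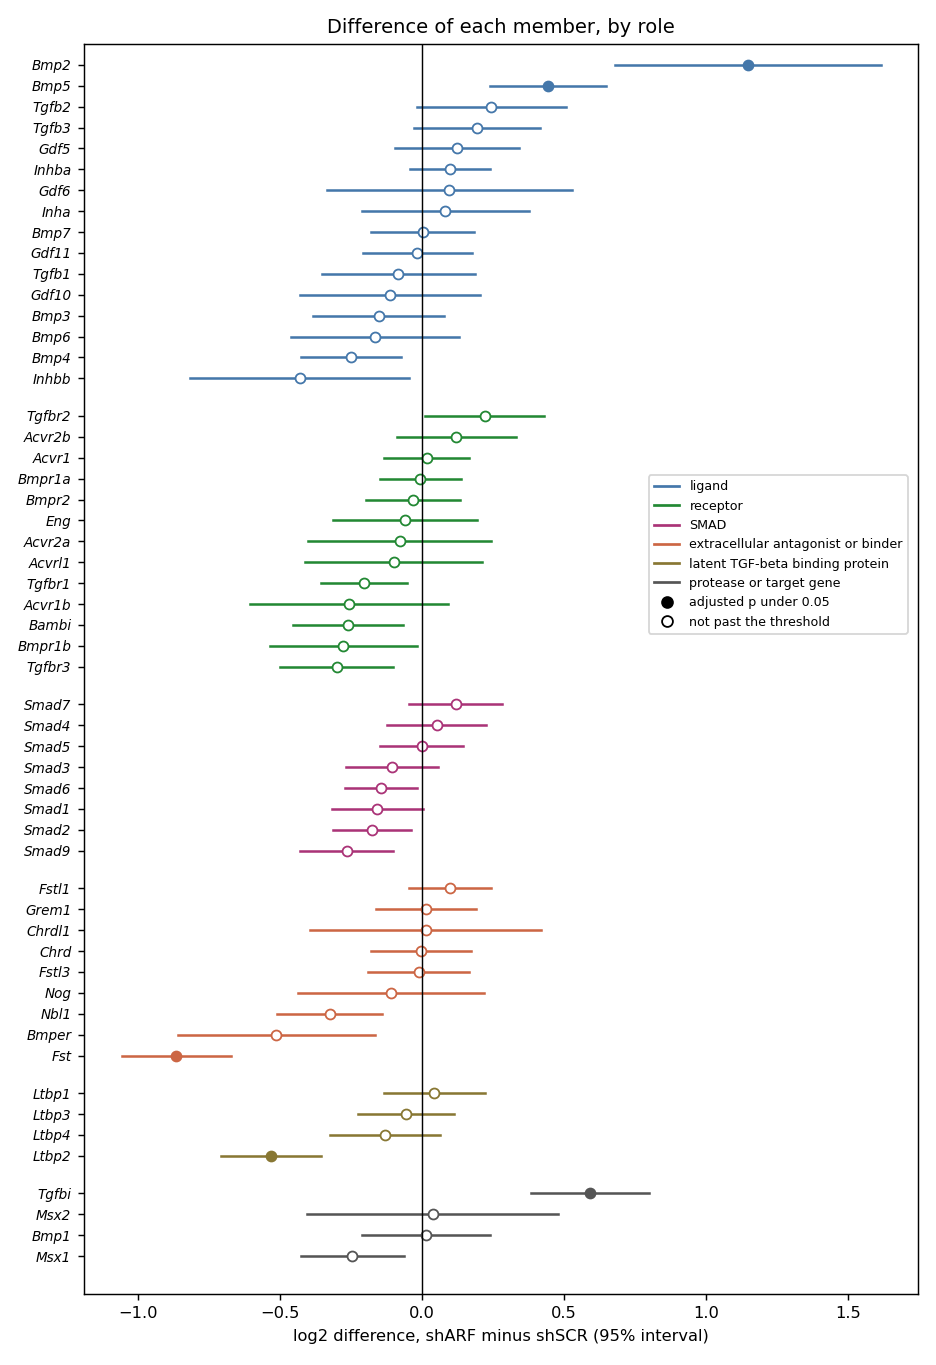
Log2 difference between shARF and shSCR (x axis) for each of the 54 members, grouped by role, with lines for the 95% interval in limma; filled points passed the adjusted threshold of 0.05. Bmp2 stands at 1.15 and Fst at -0.86, while SMADs and receptors lie between -0.30 and 0.22.

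Support for these 5 calls was uneven across arrays. Leaving out an shSCR array gave 2 called members (replicate 1), 5 (replicate 2) or 1 (replicate 3), where 1.09%, 2.02% and 0.99% of all genes were called. Leaving out an shARF array gave 1 (replicate 1), 4 (replicate 2) or 2 (replicate 3), beside 1.67%, 2.18% and 1.61% of all genes. Without both replicate 2 arrays 3 members were called, all lower, beside 0.905% of all genes. Fst was called in each of the 6 fits that left out 1 array. Ltbp2 and Tgfbi were called in 3 of the 6, Bmp2 in 2 and Bmp5 in 0.

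**Figure D2:**
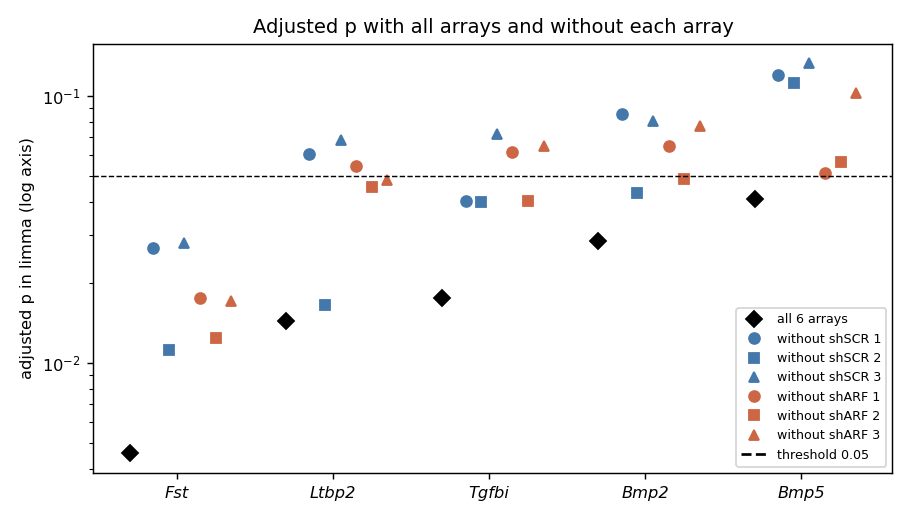
Adjusted p in limma (log axis) for the 5 called members with all 6 arrays (black diamonds) and without each array in turn (coloured by group, shaped by replicate); the dashed line is the threshold of 0.05. Only the points of Fst all lie below the line.

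Among the 16 ligands, Bmp2 and Bmp5 were called higher and 0 were called lower in limma (1.62% and 2.38% of all genes). Bmp5 had entered the test only through its shARF values. Before adjustment 2 ligands were higher and 2 lower at a p under 0.05 (8.76% and 13.4% of all genes). Bmp2 encodes a BMP that drives bone and cartilage formation. Its signal was 41.3, 46.4 and 30.2 on the shSCR arrays and 109, 71.4 and 80.6 on the shARF arrays, so each shARF array lay above every shSCR array. The mean went from 39.3 ± 8.30 (SD, n = 3) to 87.0 ± 19.7, a 2.21-fold rise (log2 difference 1.15 ± 0.199, SE; limma, adjusted p = 0.0285). The 95% interval ran from 0.68 to 1.61. Within-group spread was wide for this gene. Leaving out shSCR replicate 1 or 3, shARF replicate 1 or 3, or both replicate 2 arrays raised the adjusted p in limma above 0.05 (at most 0.0853, 0.00287 to 0.0853 across the alternatives).

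Bmp5, another BMP of skeletal development, was faint. It measured 13.1, 13.1 and 13.0 in shSCR, below the detection level of about 14.1 on each of those arrays, and 16.2, 20.1 and 17.2 in shARF. The shARF mean was at least 1.26-fold above the detection level of the shSCR arrays (limma, adjusted p = 0.041). The gene entered the test only through its shARF values, so a difference was built into its selection. Its call was lost on leaving out any 1 array, with no filter on dim probesets (limma, adjusted p = 0.0652), with 16 added before log2 (0.0665) and with the arrays quantile normalized again (0.0531). It was also lost with replicate number as a block (limma, adjusted p = 0.077) and without both replicate 2 arrays (0.145). Across all alternatives that tested Bmp5 the adjusted p ran from 0.0377 to 0.145.

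The other 14 ligands did not pass. Bmp4, a BMP widely made by mesenchymal cells, measured 183, 161 and 168 in shSCR and 153, 139 and 139 in shARF. The groups did not overlap, and the difference of -0.25 ± 0.075 missed the threshold (limma, adjusted p = 0.126). Bmp2 and Bmp4, whose proteins are close relatives, therefore had differences of opposite sign, although only that of Bmp2 passed. Bmp6 and Bmp7 differed by -0.17 and 0.00, and Bmp3, which encodes an atypical BMP that counters the others, by -0.15. The growth and differentiation factor genes Gdf5, Gdf6, Gdf10 and Gdf11 lay between -0.11 and 0.13.

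The 3 TGF-beta genes each differed by less than 0.25. Tgfb1, the form most studied in wound repair and fibrosis, measured 168, 157 and 133 in shSCR and 163, 130.5 and 139 in shARF, and the groups overlapped. Tgfb2 measured 44.6, 43.9 and 39.7 against 45.7, 59.8 and 47.2, without overlap but with a single high shARF array, replicate 2. Tgfb3 measured 355, 324 and 388 against 372, 445 and 405, and the groups overlapped. Their differences were -0.08 ± 0.115, 0.24 ± 0.112 and 0.20 ± 0.095 (limma, adjusted p = 0.725, 0.272 and 0.296). The 95% intervals reached from -0.35 to 0.19, from -0.02 to 0.51 and from -0.03 to 0.42.

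Activins are dimers of inhibin beta chains, and inhibins pair a beta chain with the alpha chain. Inhba, the beta A chain, measured 821, 761 and 811 in shSCR and 839, 850.2 and 873 in shARF, a difference of 0.10 ± 0.060 that did not pass (limma, adjusted p = 0.39). Inhbb, the beta B chain, differed by -0.43 ± 0.164 with overlapping groups (limma, adjusted p = 0.203). It was called only without shSCR replicate 2, its lowest shSCR array. Inha, the alpha chain, differed by 0.08.

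**Figure D3:**
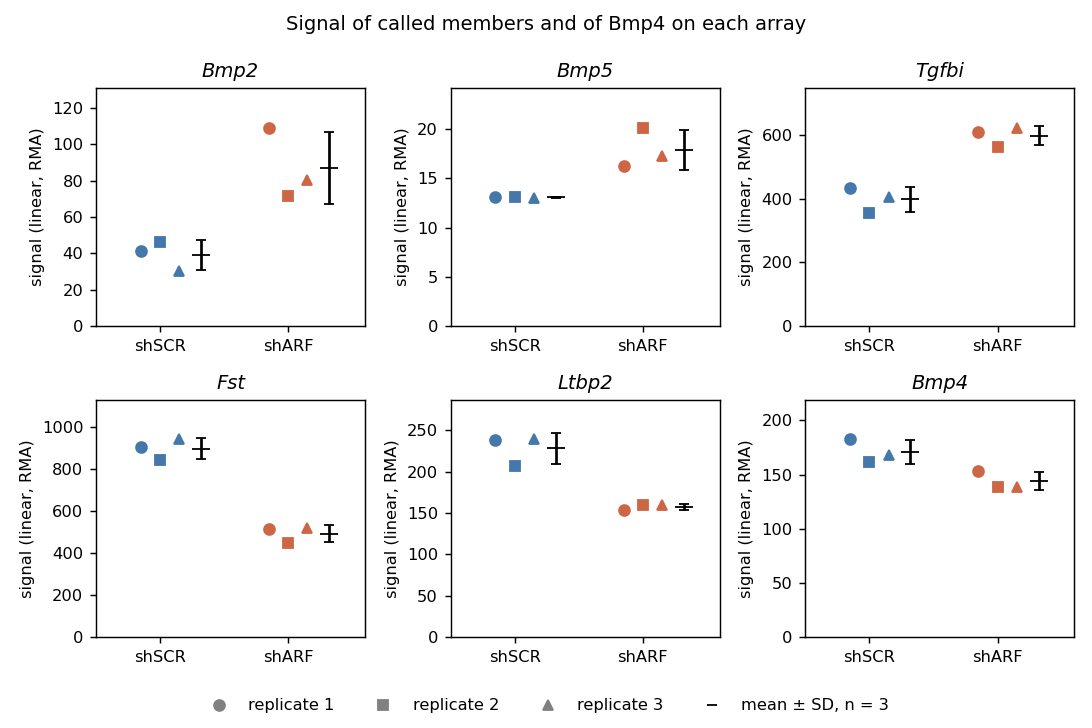
Signal on a linear scale from 0 (y axis) on each shSCR (blue) and shARF (orange) array for the 5 called members and for Bmp4, with mean ± SD (n = 3) beside the points. In each panel all shARF points lie on one side of all shSCR points.

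No receptor gene passed the test: 0 of 13 were called in limma, where 4.01% of all genes were. A count of 0 among 13 genes is near that share. Before adjustment 1 was higher (8.76% of all genes were) and 4 were lower (13.4% of all genes) at a p under 0.05. For 3 the groups did not overlap, all lower in shARF, as was so for 16.6% of all genes. Of the 13 differences, 10 were below 0 (53.2% of all genes were), with a median of -0.08 beside -0.01 over all genes. Tgfbr3, which encodes betaglycan, a co-receptor that presents TGF-beta 2, measured 512, 454 and 521 in shSCR and 437, 378 and 392 in shARF. Each shARF array lay below every shSCR array, and the difference was -0.30 ± 0.084 (limma, adjusted p = 0.108). Tgfbr1, the type I TGF-beta receptor kinase, measured 201, 182 and 195 against 170.2, 169.9 and 161.0 and likewise did not overlap, at -0.20. Its type II partner Tgfbr2 differed by 0.22 with overlapping groups, the largest positive difference among the receptors. Neither passed (limma, adjusted p = 0.141 and 0.22).

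The BMP receptors showed little difference, apart from Bmpr1b. Bmpr1a and Acvr1, type I kinases for BMPs, differed by -0.00 and 0.02, and the type II receptor gene Bmpr2 by -0.03, with 95% intervals that stayed within -0.20 and 0.17. Bmpr1b differed by -0.28 ± 0.110 with overlapping groups (limma, adjusted p = 0.217). The activin receptor genes Acvr1b, Acvr2a and Acvr2b differed by -0.26, -0.08 and 0.12. Acvrl1 and Eng, which encode a type I receptor and a co-receptor best known from endothelium, differed by -0.10 and -0.06. Bambi, which encodes a pseudoreceptor without a kinase that blocks signalling, measured 162, 188 and 156 against 137, 144 and 139.8, at -0.26 ± 0.082 (limma, adjusted p = 0.14).

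SMAD genes had small differences, 6 of the 8 below 0 (53.2% of all genes were), with a median of -0.12 beside -0.01 over all genes. None of the 8 passed in limma, where 4.01% of all genes did, so a count of 0 is near that share. Before adjustment 3 were lower and 0 higher (13.4% and 8.76% of all genes). All 8 of the 95% intervals lay within a 1.5-fold change, as did 91.7% of those over all genes. The groups did not overlap for 4, Smad1, Smad2, Smad6 and Smad9, all lower in shARF (16.6% of all genes). Smad9, a receptor SMAD of the BMP arm, measured 55.8, 52.03 and 52.1 in shSCR and 47.4, 41.99 and 43.9 in shARF, at -0.26 ± 0.070 (limma, adjusted p = 0.0945). It was called with the filter at the array median, where 9.62% of all genes were. Smad6, the inhibitory SMAD of the BMP arm, measured 63.8, 64.4 and 63.6 against 57.7, 57.3 and 58.7, a narrow step of -0.14. Smad1 and Smad2 differed by -0.16 and -0.17. Smad7, the inhibitory SMAD induced by TGF-beta, measured 165, 176 and 157 against 187, 183 and 171, with overlap, and differed by 0.12 ± 0.070 (limma, adjusted p = 0.376). Smad3, Smad4 and Smad5 differed by -0.10, 0.05 and -0.00.

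Of the 9 secreted antagonists and binding proteins, Fst fell and the others did not pass. Fst encodes follistatin, which binds activins nearly irreversibly and also binds some BMPs. Its signal was 905, 844 and 943 on the shSCR arrays and 516, 447 and 518 on the shARF arrays, so the groups stood well apart. The mean went from 897 ± 50.1 (SD, n = 3) to 494 ± 40.1, and the gene fell by 0.86 ± 0.082 (SE) on the log2 scale (limma, adjusted p = 0.00459). The 95% interval ran from -1.06 to -0.67. The adjusted p stayed between 2.75e-05 and 0.0282 over all 15 alternative settings.

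Genes of the same secreted group differed from one another. Fstl3 and Fstl1, related to follistatin in sequence, differed by -0.01 and 0.10. Fstl3, which also binds activin, measured 160.2, 143 and 151 against 158, 139.6 and 153, with overlap. The BMP antagonist gene Grem1 measured 1860.0, 1805 and 1699 in shSCR and 1892, 1658 and 1877 in shARF, overlapping, with a difference of 0.02 ± 0.075 and a 95% interval of -0.16 to 0.19. Nog, which encodes noggin, was faint at 46.0, 38.9 and 32.6 against 37.6, 31.4 and 39.4 and overlapped as well. Chrd and Chrdl1, of the chordin family of BMP antagonists, differed by -0.00 and 0.01.

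Nbl1 and Bmper had lower values in shARF without passing. Nbl1, a BMP antagonist of the gremlin family, measured 121, 107 and 119.96 in shSCR and 99.2, 89.2 and 89.1 in shARF, at -0.32 ± 0.079 (limma, adjusted p = 0.0754, 0.0382 to 0.203 across the alternatives). Bmper, which encodes a chordin-related regulator of BMP activity, measured 116, 96.8 and 127 against 73.3, 96.5 and 69.7, at -0.51 ± 0.147 (limma, adjusted p = 0.116, 0.038 to 0.269 across the alternatives). Its groups were separated only by 96.8 against 96.5, both replicate 2 arrays. Without those 2 arrays Bmper was called.

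Among the 4 latent TGF-beta binding protein genes, Ltbp2 fell and the others did not pass. Ltbp2 encodes a microfibril protein that, unlike its relatives, does not bind latent TGF-beta. It measured 238, 207 and 239 in shSCR and 153, 159.3 and 159.5 in shARF, with no overlap and with the shARF arrays close together. The mean went from 228 ± 18.4 (SD, n = 3) to 157 ± 3.48, and the gene fell by 0.53 ± 0.075 (SE) on the log2 scale (limma, adjusted p = 0.0144). Leaving out shSCR replicate 1 or 3 or shARF replicate 1 raised the adjusted p above 0.05, to at most 0.0684 (0.00126 to 0.0684 across the alternatives). Ltbp1, Ltbp3 and Ltbp4 differed by 0.05, -0.06 and -0.13.

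Tgfbi rose, while the remaining 3 genes did not pass. Tgfbi encodes a secreted adhesion protein of the matrix, named for its induction by TGF-beta. It measured 434, 355 and 405 in shSCR and 610.1, 564 and 623 in shARF, so every shARF array lay above every shSCR array. The mean went from 398 ± 40.0 (SD, n = 3) to 599 ± 31.0, a 1.51-fold rise (log2 difference 0.59 ± 0.088, SE; limma, adjusted p = 0.0175). The call was lost without shSCR replicate 3, shARF replicate 1, shARF replicate 3 or both replicate 2 arrays (at most 0.0718, 6.23e-04 to 0.0718 across the alternatives). Bmp1, which despite its name encodes a procollagen protease that also cleaves chordin, differed by 0.02. The homeobox genes Msx1 and Msx2, targets of BMP signalling, differed by -0.24 and 0.04, and Msx1 did not overlap between groups (102.8, 95.95 and 97.8 against 77.0, 83.3 and 90.8; limma, adjusted p = 0.139).

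**Figure D4:**
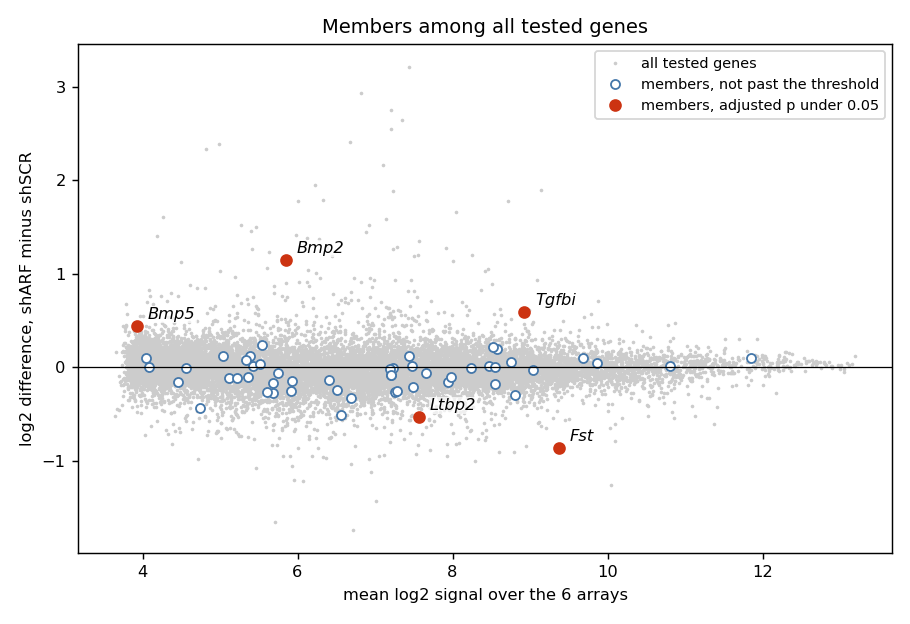
Log2 difference between shARF and shSCR (y axis) against mean log2 signal over the 6 arrays (x axis) for all 15145 tested genes (grey), with members that passed (red) and did not pass (open blue). Fst and Tgfbi lie at high signal, and Bmp5 lies near the lower edge.

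Promoter sequences are shown for the called members that the RefSeq promoter table of GRCm38.p6 held, because Tgfbi and Ltbp2 moved in opposite directions although both are known as TGF-beta responsive genes. Each window has 300 bases, 250 before and 50 after the annotated start, and is written 5′ to 3′ on the gene's strand. Capitals mark 3 motifs chosen after the sequences were seen and searched on both strands: the SMAD-binding motif CAGAC, the GC-rich motif GGCGCC that BMP SMADs bind, and GAAACT, the repeat unit of interferon response elements. A match on the other strand reads as the reverse complement. The marked motifs did not overlap.
Tgfbi promoter, chr13:56609336-56609635, plus strand: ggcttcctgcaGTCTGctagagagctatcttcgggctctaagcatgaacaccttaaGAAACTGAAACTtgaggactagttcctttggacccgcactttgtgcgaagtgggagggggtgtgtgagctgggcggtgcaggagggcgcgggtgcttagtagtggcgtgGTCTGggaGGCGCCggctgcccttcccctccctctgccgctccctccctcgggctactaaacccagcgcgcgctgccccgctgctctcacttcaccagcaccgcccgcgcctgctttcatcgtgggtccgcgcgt
Ltbp2 promoter, chr12:84876442-84876741, minus strand: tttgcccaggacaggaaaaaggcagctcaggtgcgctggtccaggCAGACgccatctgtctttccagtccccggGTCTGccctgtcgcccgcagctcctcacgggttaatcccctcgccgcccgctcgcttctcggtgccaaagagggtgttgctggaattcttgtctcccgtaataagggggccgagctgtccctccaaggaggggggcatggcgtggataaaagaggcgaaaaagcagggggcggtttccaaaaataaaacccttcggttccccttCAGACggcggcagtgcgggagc
Bmp5 promoter, chr9:75775115-75775414, plus strand: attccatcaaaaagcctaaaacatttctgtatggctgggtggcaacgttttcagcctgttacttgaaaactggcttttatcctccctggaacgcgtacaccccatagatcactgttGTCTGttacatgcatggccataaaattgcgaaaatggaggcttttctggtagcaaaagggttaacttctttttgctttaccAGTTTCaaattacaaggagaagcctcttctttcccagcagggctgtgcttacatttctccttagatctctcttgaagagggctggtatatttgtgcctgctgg

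The Tgfbi window held CAGAC at 2 places, GGCGCC at bases -77 to -72 from the start, and GAAACT at -194 to -189 and directly after it at -188 to -183. The Ltbp2 window held CAGAC at 3 places and neither of the other motifs. The Bmp5 window held CAGAC and GAAACT at 1 place each. CAGAC was present in 49.6% of the 32851 promoter windows in the table, GGCGCC in 11.9% and GAAACT in 15.8%. Of 38 members with a window in the table, 20 held CAGAC, 12 held GGCGCC and 9 held GAAACT. Members were counted as genes and the whole table as windows, so these counts cannot be set directly against those shares. A match describes the letters only. The windows of Tgfbi and Ltbp2 had 63.3% and 61.0% G and C, that of Bmp5 43.3%, and the median over all windows was 52.7%.

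Genes that BMP signalling is known to induce were lower in shARF cells in part. Of 17 tested genes on a list of BMP targets, 5 fell and 0 rose in limma (29.4% called, beside 4.01% of all genes and 2.38% called lower), and 12 did not pass. Before adjustment 8 were lower and 0 higher at a p under 0.05 (13.4% and 8.76% of all genes). All 4 ID genes, which encode inhibitors of basic helix-loop-helix factors, and Atoh8, which encodes such a factor, made up the 5. The list median was -0.14, beside -0.01 over all genes. The list was chosen with earlier results of these data known, so its share called is no test of BMP signalling. Id1 measured 585, 632 and 599.5 in shSCR and 323, 318 and 329.9 in shARF, and fell by 0.90 ± 0.059 (SE) on the log2 scale (limma, adjusted p = 0.00154). Id2, Id3 and Id4 fell by 0.76, 0.61 and 0.58. Atoh8 measured 82.2, 83.3 and 83.0 against 50.0, 41.8 and 37.9 and fell by 0.95 ± 0.102 (limma, adjusted p = 0.00639).

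Bmp2 rose while these targets fell, in the same cells. The 7 members on the target list, Smad6, Smad7, Bambi, Nog, Grem1, Msx1 and Msx2, did not pass. Of them Smad6, Bambi and Msx1 had lower shARF values without overlap (16.6% of all genes did), and Smad7 differed by 0.12 the other way. Id1, Id2 and Atoh8 were called in each fit that left out 1 array. Id3 was lost without any 1 shSCR array and Id4 without any 1 array. Without both replicate 2 arrays Id1 alone was called, beside 0.905% of all genes. The number called was 3 to 4 without any 1 array, where 0.99% to 2.18% of all genes were called.

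**Figure D5:**
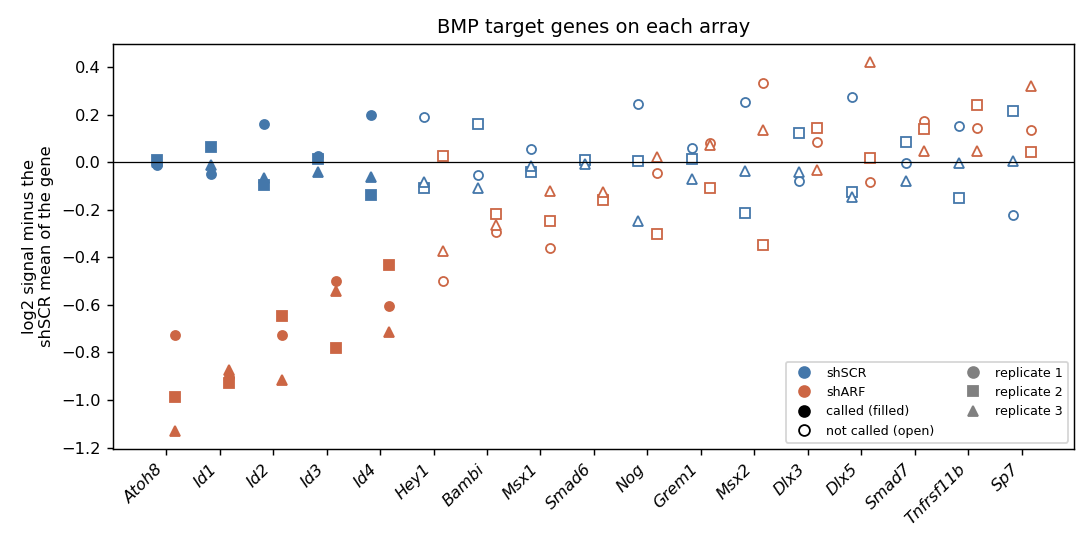
Log2 signal of each of the 17 tested BMP target genes on each array, as the distance from the gene's shSCR mean (y axis); blue points are shSCR, orange points shARF, filled where the gene was called. The orange points of Atoh8, Id1, Id2, Id3 and Id4 all lie below the blue ones.

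TGF-beta target genes moved both ways. Of 25 tested, 2 rose and 6 fell in limma (32.0% called, beside 4.01% of all genes, 1.62% higher and 2.38% lower), and 17 did not pass, with a median difference of -0.03. Before adjustment 11 were lower and 5 higher at a p under 0.05 (13.4% and 8.76% of all genes). The members Tgfbi and Ltbp2 stood among them on opposite sides. This list too was chosen with earlier results of these data known, so its share called is no test of TGF-beta signalling. Igfbp3, which encodes a secreted binding protein of insulin-like growth factors, measured 362, 297 and 356 in shSCR and 203, 161 and 163 in shARF and fell by 0.95 ± 0.119 (SE) on the log2 scale (limma, adjusted p = 0.0102), a call lost without shSCR replicate 3 (0.0544, 2.30e-04 to 0.0544 across the alternatives). The contractile genes Cnn1, Tagln and Acta2 fell by 1.25, 0.41 and 0.28 (limma, adjusted p = 0.00121, 0.0271 and 0.0491). Cnn1 was called in each of the 6 fits that left out 1 array, Tagln in 1 and Acta2 in 0, with an adjusted p of up to 0.0136, 0.104 and 0.147. The protease inhibitor gene Timp3 fell by 0.54 (limma, adjusted p = 0.0126) and was lost only without both replicate 2 arrays (0.0973). Postn, which encodes the matrix protein periostin, rose by 0.48 (limma, adjusted p = 0.0271), but was called in 0 of the 6 fits that left out 1 array (0.0579 to 0.0746) and not without both replicate 2 arrays (0.123). Leaving out an shSCR array gave 4 (replicate 1), 5 (replicate 2) or 2 (replicate 3) calls, beside 1.09%, 2.02% and 0.99% of all genes. Leaving out an shARF array gave 3 (replicate 1), 6 (replicate 2) or 4 (replicate 3), beside 1.67%, 2.18% and 1.61% of all genes. Without both replicate 2 arrays 2 were called, beside 0.905% of all genes. Angptl4, Zeb2 and Col5a1 came next by p, at -0.47, -0.17 and 0.20, and did not pass. Ctgf and Cyr61 were not analysed here.

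Few other genes of the pathway passed, where 4.01% of all genes did. In lists of this size the counts lie near that share. Of 21 tested genes for further antagonists and matrix modulators, 1 rose and 0 fell in limma (1 lower and 5 higher at a p under 0.05 before adjustment; 13.4% and 8.76% of all genes). Furin, the protease that cleaves many ligand precursors, measured 296, 313 and 289.7 in shSCR and 401, 368 and 364 in shARF and rose by 0.33 ± 0.067 (limma, adjusted p = 0.0436), a call lost without any 1 array (0.00782 to 0.146 across the alternatives). Htra1, Dcn and Tll2 differed by 0.36, 0.71 and 0.30. Among 22 genes of signal transduction inside the cell, 0 passed, with 3 higher and 0 lower before adjustment (8.76% and 13.4% of all genes). Ski, which encodes a nuclear repressor of SMADs, differed by 0.24, Tgif1 by 0.15 and the ubiquitin ligase gene Smurf1 by 0.14. These 3 were among 4 of the 22 that were higher in shARF without overlap, as were 12.0% of all genes.

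Of 9 further ligand genes tested, 0 passed in limma, where 4.01% of all genes did. Before adjustment 2 were lower and 0 higher (13.4% and 8.76% of all genes). Lefty1, which encodes an inhibitor of nodal, was faint and differed by -0.40, Bmp8b by -0.49 and Bmp8a by 0.20. Of 3 tested co-receptor genes 0 passed, with 2 higher and 0 lower before adjustment. Rgma, which encodes a BMP co-receptor, measured 299, 291 and 294 in shSCR and 394, 332 and 354 in shARF, without overlap, and differed by 0.29 ± 0.076 (limma, adjusted p = 0.0956). Cd109, which encodes a TGF-beta co-receptor that dampens signalling, differed by 0.22, and Rgmb by -0.04.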

How the data were processed

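The authors ran RMA on core probesets in Affymetrix Expression Console, per the submitters' processing notes and design text, and deposited linear intensities. Version, genome build and annotation are not given in the sources used here. Because RMA quantile normalizes, a shift shared by most genes is removed, and its background step shrinks folds of dim probesets. The authors' test, SAM, was not run here.

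Probesets were named from the platform annotation (21056 of 26851 with 1 symbol, 1450 with several, 4345 with none), and all 54 members matched the RefSeq gene table of GRCm38.p6. A probeset was tested if it exceeded the 25th percentile of the array (14.1 to 14.9 in signal) on at least 3 arrays, which kept 20310. No negative controls were named. Signals were turned to log2 and fitted with limma 3.58.1 in R 4.3.3 (lmFit, eBayes, two-sided), adjusted by Benjamini-Hochberg over all tested probesets, and each gene was read from its probeset with the highest mean. The script was tested on simulated data. Precision is limited by having 3 arrays in each group.

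The members, lists and tests were chosen with earlier results of these data known. Members were described with every array's value if called, if the groups did not overlap with a difference of at least 0.3, or if they were Tgfb1, Tgfb2, Tgfb3, Bmp2, Bmp4, Grem1, Nog or Smad7; from each list, called genes and up to 3 next by p were named. Other members with array values were chosen after their values were seen. In all, 15 alternative settings were tried, on the filter, an added 16 before log2, normalization, limma settings, probesets, the replicate block and arrays left out. Marker lists covered fibroblasts, macrophages, endothelium, epithelium, muscle, cartilage with bone, and neural cells; apart from Lum (higher), Krt18 and Nefl, none of their tested genes was called.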

Additional observations from a re-analysis of the deposited data

How the results depend on the processing

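The count of all genes called in limma, 607, was 372 with no filter on dim probesets, 996 with the filter at the array median, 978 with 16 added before log2, 1281 with limma's trend and robust options, 137 without both replicate 2 arrays and 150 to 330 without any 1 array. The 5 members called became 8 with trend and robust (Tgfbr3, Bmper and Nbl1 added), where 8.46% of all genes were called. They became 3 without both replicate 2 arrays (0.905% of all genes) and 1 to 5 without any 1 array (0.99% to 2.18% of all genes). Members called higher were 0 without both replicate 2 arrays (5 at an unadjusted p under 0.05) and 0 to 2 without any 1 array. Members called lower were 4 with the filter at the array median (Smad9 and Nbl1 added), 5 with trend and robust, and 1 to 3 without any 1 array. Small differences changed sign: Tgfb1 to 0.0127 without both replicate 2 arrays, Nog within -0.233 to 0.0138 and Grem1 within -0.0208 to 0.0769 without any 1 array. The causes were not tested. Deviations of same-numbered arrays correlated at 6.18e-04 to 0.0778 over probesets. Of the shSCR arrays, replicates 1 and 2 correlated best with the shARF array of the same number (0.0778 and 0.0518). Replicate 3 correlated best with shARF replicate 2 (0.0936). Values this small cannot settle whether same-numbered arrays were paired. With the replicate block 336 genes and 4 members were called, and Bmp5, Id4, Tagln, Acta2, Postn and Furin were not. Cdkn2a and Fst were called in all 15 alternatives. Bmp5 lies near the detection level, which limits what its signal can show.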

Other observations

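Within the shSCR group, replicate 2 held the lowest value for 25 of the 54 members, replicate 3 for 17 and replicate 1 for 12. Within the shARF group, replicate 2 held the lowest value for 23 members and the highest for 21.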
